A study of Dascyllus aruanus with 17 samples.

Results

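The difference between damselfish brains from lit nights and brains from dark nights was measured across 2 sampling times at once, in 14 of the 17 libraries of the series. *Dascyllus aruanus*, a damselfish that lives in groups on branching coral, was caught wild off Okinawa, and 6 colonies were habituated for 96 h. For 72 h thereafter, over 3 nights, colonies either received dim white artificial light during the dark phase (ALAN) or stayed on the natural light-dark cycle (control). Whole brains of individual fish were taken at zeitgeber time 11 (ZT11, shortly before sunset) or 23 (ZT23, shortly before sunrise). The members were all 7 ALAN libraries (3 at ZT11 and 4 at ZT23) and all 7 control libraries (3 at ZT11 and 4 at ZT23). They were taken by treatment label, with earlier results of these data known. The 3 other libraries served to build the transcriptome and were not analysed here. Every fish was wild, all groups shared the capture and habituation, and light was given to colonies and not to single fish. No label ties a brain to its colony. Colony and treatment therefore cannot be told apart, and the p-values treat each brain as independent.

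Light reaches the fish brain through the eyes, the pineal organ and photosensitive cells deep in the brain. It resets the circadian clock partly by inducing period and cryptochrome genes, and it stops the nightly making of melatonin. Neuronal activity switches on the immediate-early genes within minutes, among them the transcription factors of the FOS, EGR, NR4A and NPAS4 families. A shift in the same direction at dusk and at dawn would therefore lie on top of the daily cycle of many of these transcripts.

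Library depth was similar in both treatments, with 17941030 to 20432119 expected counts in ALAN libraries and 14942952 to 23051193 in control libraries. The brain label held, since the glutamatergic neuron marker SLC17A6 (DN4921) lay between 285 and 416 CPM (counts scaled to library size) and the summed neuron list between 4808 and 5941 CPM over all libraries. Markers of tissues around the brain differed strongly between single libraries. The summed photoreceptor list reached 2181, 501 and 422 CPM in control ZT23 replicate 4, control ZT23 replicate 2 and control ZT11 replicate 1, against 109 to 203 CPM in the 7 ALAN libraries. The pituitary list reached 1451, 1436 and 928 CPM in ALAN ZT23 replicate 2 and ALAN ZT11 replicates 2 and 1, and 558 CPM in control ZT23 replicate 4, against a median of 185 CPM. The muscle list reached 1563 and 1274 CPM in control ZT11 replicates 1 and 4, and the liver list 2411 CPM in control ZT11 replicate 2, with medians over all libraries of 590 and 700 CPM.

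With time of day held as a covariate, 1 of 20782 features passed the adjusted threshold of 0.05 in the edgeR quasi-likelihood test, which is 0.00481% of those tested. That feature, DN44657, fell under ALAN, and edgeR called 0 features higher. At an unadjusted p under 0.05 stood 460 features higher under ALAN (2.21%) and 550 lower (2.65%), together 1010 where a 5% share would be 1039. DESeq2 on the same additive model called 25 higher and 89 lower. All 114 of these had the same sign in edgeR and an unadjusted edgeR p under 0.05, and 1 of them was called there. In the same edgeR fit, time of day itself was called for 901 features. That count gives no measure of how small a treatment shift could have been called.

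Few features shifted alike at dusk and at dawn. The ALAN over control log2 fold changes at ZT11 and at ZT23 come from separate brains, and they had the same sign in 9946 of 20782 features (47.9%). Across these features Pearson's r was 0.04 and Spearman's rho -0.02, given as a description since features are not independent. An unadjusted p under 0.05 at each of the 2 times was reached by 180 features. Of these, 17 were higher at both (0.0818% of those tested) and 90 lower at both (0.433%), while 31 were higher at ZT11 and lower at ZT23 and 42 the reverse. For the difference between the 2 times (the interaction), edgeR called 0 features. The smallest adjusted p was 0.121, and 1278 features stood at an unadjusted p under 0.05.

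**Figure D1:**
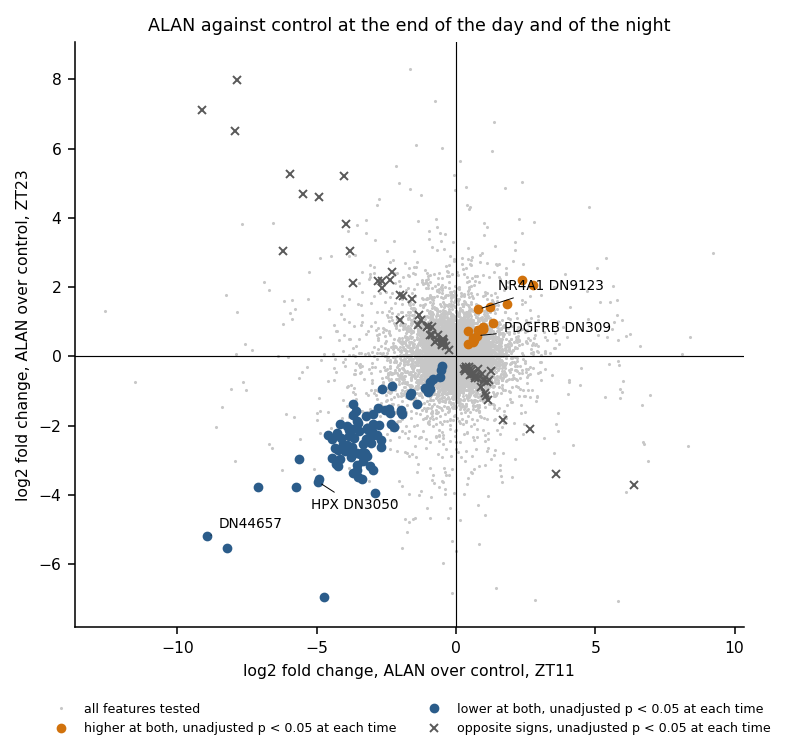
Each point is a feature, with its log2 fold change of ALAN over control at ZT11 on the x axis and at ZT23 on the y axis; coloured circles mark features with an unadjusted p under 0.05 at each time and the same sign, and crosses those with opposite signs. The 90 features lower at both times extend far to the lower left, the 17 higher at both lie nearer to the origin, and the cloud of all 20782 features shows no slope.

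The called feature was almost absent from brains of lit nights. DN44657 had 2, 0 and 0 counts in the ALAN libraries at ZT11 and 0 in each of the 4 ALAN libraries at ZT23. The control libraries held 340, 360 and 278 counts at ZT11, and 2, 2, 13 and 2 counts at ZT23. The groups did not overlap at either time, and all control libraries but 1 of 7 ALAN libraries held a count. The feature passed the count filter through its control libraries alone. Summed over libraries this is 2 counts in ALAN against 997 in control, and the control to ALAN ratio scaled by library size was 511 (exact 95% interval 141 to 4229, counting error only). The fitted log2 fold change was -8.57 (SE 0.72, edgeR adjusted p = 0.000157), a size that depends on the prior count because 6 of 7 ALAN libraries were at 0. By far the most of the control counts came from the 3 ZT11 brains, and ZT23 alone gave 0 counts in ALAN against 19 in control. Of these 19, 13 came from control ZT23 replicate 3. In the ZT23 libraries alone DN44657 was not called (log2 fold change -5.26, edgeR adjusted p = 0.999). The call was lost without ALAN ZT11 replicate 1, the only ALAN library with counts (adjusted p = 0.152), and without time of day in the model (adjusted p = 0.430). It was also lost with marker sums of other tissues as covariates and without the libraries high in pituitary markers, which include that ALAN library. The fitted size was -9.83 (log2) without that library, -8.70 without time of day, -5.10 with the covariates and -9.47 without the pituitary-high libraries. The deposited annotation gives DN44657 no gene name and no description, only a best match with a bit score of 189.

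Among the features edgeR did not call, the one with the smallest p for a higher level was RTN4RL2 (DN8334), a receptor of the Nogo receptor family that binds inhibitors of neurite growth in mammals. Its ALAN libraries held 80.2, 80.9 and 66.9 CPM at ZT11, against 52.4, 63.6 and 53.2 CPM in control. At ZT23 they held 39.8, 52.6, 48.0 and 42.6 CPM, against 28.9, 27.4, 25.8 and 26.9 CPM in control. Every ALAN library lay above every control library of its time, although its level was lower at ZT23 than at ZT11 in both treatments. Its log2 fold change was 0.61 (SE 0.09, edgeR adjusted p = 0.102), with 0.43 at ZT11 and 0.75 at ZT23. It passed the threshold without ALAN ZT11 replicate 3 (adjusted p = 0.0431), without control ZT11 replicate 2 (adjusted p = 0.0343) and in DESeq2 (adjusted p = 4.82e-06), and its adjusted p over the 14 libraries left out in turn ran from 0.0343 to 0.340.

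A second feature carries the same name, RTN4RL2 (DN6473). It held 58.4, 69.0 and 49.7 CPM in ALAN libraries at ZT11, against 38.9, 53.4 and 56.3 CPM in control, and here the groups overlapped. In ZT23 brains it held 36.5, 44.5, 34.6 and 33.7 CPM in ALAN, against 16.5, 16.8, 18.7 and 17.8 CPM in control, and the groups stood apart. Its log2 fold change was 0.73 over both times (SE 0.15, adjusted p = 0.301), 0.25 at ZT11 and 1.10 at ZT23. Features that share a name may be copies of the gene or pieces of 1 transcript between which reads were divided.

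PDGFRB (DN309), the platelet-derived growth factor receptor of pericytes and other vessel wall cells, had like sizes at both times. It held 16.7, 18.5 and 19.0 CPM in ALAN libraries at ZT11, against 8.39, 11 and 12.7 CPM in control. Before sunrise, at ZT23, it held 19.2, 14.4, 19.5 and 16.5 CPM in ALAN, against 12.5, 14.3, 10.2 and 9.11 CPM in control. The 2 treatments did not overlap at either time, with the narrowest gap at ZT23 between 14.4 and 14.3 CPM. The log2 fold change was 0.66 (SE 0.13, adjusted p = 0.299), with 0.75 at ZT11 and 0.60 at ZT23. The 25 connective and vascular features, which include PDGFRB, had a median of 0.08 against 0.00 over all features tested. At an unadjusted p under 0.05, 3 of the 25 were higher, beside 2.21% of all features, and 0 lower. The other 2 were TAGLN (transgelin, of smooth muscle; 0.60) and PECAM1 (of endothelium; 0.49). The list's summed level ran from 186 to 240 CPM in ALAN and from 155 to 231 CPM in control. DESeq2 called PDGFRB (DN309) alone of this list. A second feature named PDGFRB, on the same list, was not at an unadjusted p under 0.05.

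Other named features with higher ALAN values had like sizes at ZT11 and ZT23, and none passed the threshold. THRAP3 (DN1327), a splicing-associated protein, averaged 7.54 CPM in ALAN and 5.10 CPM in control, with a log2 fold change of 0.56 (SE 0.13), 0.61 at ZT11 and 0.52 at ZT23. For icam5 (DN10539), an adhesion molecule of telencephalic neurons in mammals, the means were 11.3 CPM in ALAN and 7.80 CPM in control, with 0.55 (SE 0.13), 0.66 at ZT11 and 0.47 at ZT23. GPR155 (DN94962), a cholesterol-sensing membrane protein of lysosomes in mammals, averaged 7.24 CPM in ALAN and 4.23 CPM in control, with 0.79 (SE 0.19), 0.83 at ZT11 and 0.75 at ZT23. DGKE (DN138403), a diacylglycerol kinase, averaged 2.06 CPM in ALAN and 0.65 CPM in control, with 1.65 (SE 0.41), 1.83 at ZT11 and 1.52 at ZT23. Its ALAN ZT11 replicate 2 (0.63 CPM) and ALAN ZT23 replicate 3 (0.80 CPM) lay within the control range of their time. Their adjusted p was 0.341 in each case, and DESeq2 called all 4 of them. The names THRAP3, GPR155 and DGKE are shared by 4, 3 and 2 features, of which 1 each is described here.

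**Figure D2:**
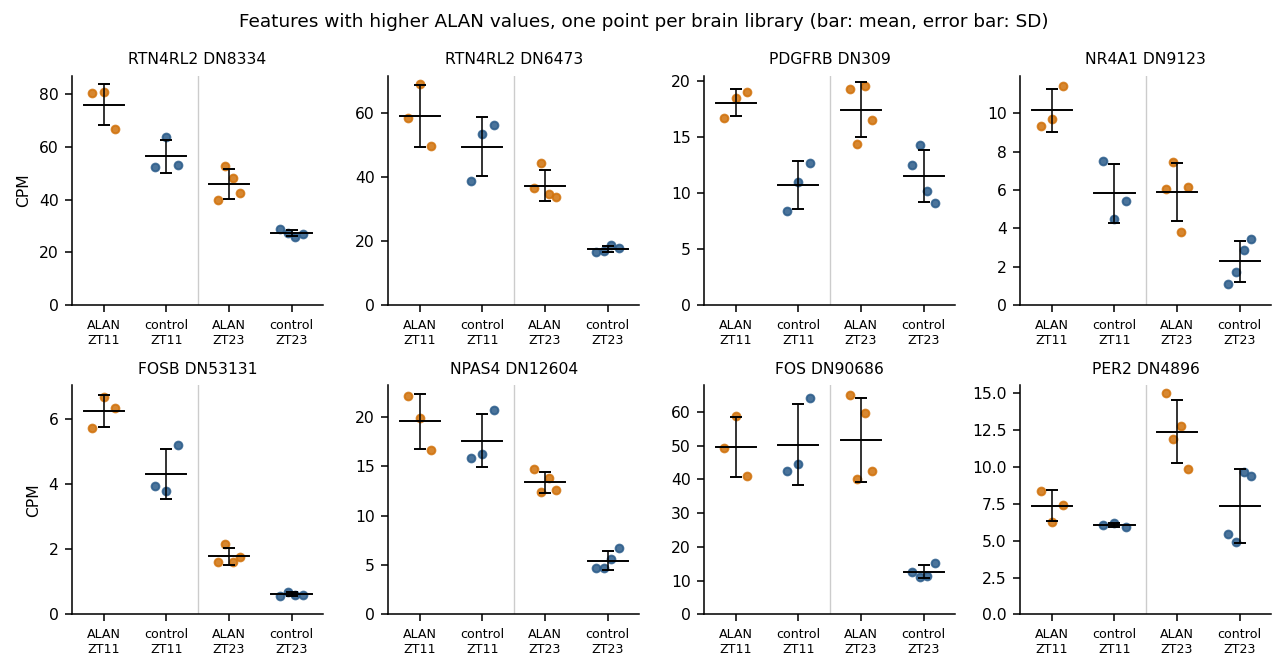
CPM of 8 features in each brain library, ALAN (orange) left of control (blue) at ZT11 and then at ZT23; bars are group means and error bars SD. RTN4RL2 (DN8334), PDGFRB, NR4A1, FOSB and PER2 have ALAN and control points apart at both times, whereas FOS and NPAS4 overlap at ZT11 and stand apart at ZT23.

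Immediate-early genes had higher ALAN values in many members of their list, mostly in the ZT23 brains. Of 34 features, edgeR called 0 and DESeq2 called 5 higher, of 25 higher DESeq2 calls in all. At an unadjusted p under 0.05, 14 were higher and 0 lower, a share of 41.2% beside 2.21% of all features. All lists here were chosen with earlier results of these data known, so such contrasts are descriptions and no separate support. The list's median log2 fold change was 0.22, and 26 of 34 members were above 0. Of these 14, all but 1 had a larger log2 fold change at ZT23 than at ZT11, 12 reached an unadjusted p under 0.05 at ZT23 and 2 at ZT11. Their median was 0.16 at ZT11 and 1.06 at ZT23. From ZT11 libraries alone 2 list members reached an unadjusted p under 0.05. The count of 14 became 4 without time of day in the model, and it was 8 without the 3 libraries high in photoreceptor markers and 9 without the 4 high in pituitary markers.

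FOSB and NR4A1 were the members apart at both times. FOSB (DN53131), a partner in the AP-1 transcription factor, held 5.72, 6.67 and 6.34 CPM in ALAN libraries at ZT11, against 3.94, 3.80 and 5.21 CPM in control. At ZT23 it held 1.61, 2.15, 1.61 and 1.77 CPM in ALAN, against 0.58, 0.70, 0.61 and 0.60 CPM in control. Its log2 fold change was 1.06 (SE 0.22, adjusted p = 0.301), 0.53 at ZT11 and 1.52 at ZT23. Its control counts at ZT23 were low, between 10 and 14 per library.

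NR4A1 (DN9123), an orphan nuclear receptor induced by activity, held 9.32, 9.70 and 11.4 CPM in ALAN libraries at ZT11, against 7.53, 4.51 and 5.44 CPM in control. In ZT23 brains it held 6.08, 7.46, 3.83 and 6.18 CPM in ALAN, against 1.10, 1.70, 2.85 and 3.46 CPM in control. No ALAN value reached down to the control values of its time. The log2 fold change was 1.12 (SE 0.25, adjusted p = 0.339), 0.80 at ZT11 and 1.36 at ZT23. A second feature named NR4A1 (DN60277), at a mean of 0.79 CPM, had -0.35 over both times.

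NPAS4 (DN12604), a neuron-specific factor that responds to calcium entry, overlapped at ZT11. It held 22.1, 19.9 and 16.6 CPM in ALAN libraries there, against 15.9, 16.3 and 20.7 CPM in control. At ZT23 the values were 14.7, 12.5, 13.8 and 12.6 CPM in ALAN, against 4.68, 4.70, 5.60 and 6.71 CPM in control. Its log2 fold change was 0.80 over both times (SE 0.19, adjusted p = 0.341) and 0.15 at ZT11 alone. A second feature carries the name NPAS4 and is not described here.

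FOS (DN90686) was singled out after its values were seen, because its shift was held by 1 time. It held 49.2, 58.6 and 40.9 CPM in ALAN libraries at ZT11, against 42.5, 44.4 and 64.0 CPM in control. Before sunrise, at ZT23, it held 65.1, 40.1, 59.5 and 42.4 CPM in ALAN, against 12.5, 11.2, 11.5 and 15.3 CPM in control. The log2 fold changes were -0.02 at ZT11 and 2.03 at ZT23, and the 2 had the smallest interaction adjusted p of all features (0.121). EGR1 (DN67897), a zinc-finger factor of the same response, had -0.06 at ZT11 and 1.75 at ZT23. A list median over both times therefore mixes members that were near 0 at ZT11 with members that were above 0 at both.

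The clock genes gave fewer such features. Of 43 core clock features, edgeR and DESeq2 each called 0, and 4 were higher and 0 lower at an unadjusted p under 0.05, which is 9.30% beside 2.21% of all features. The median was 0.03. PER2 (DN4896), a light-induced period gene in fish, held 8.39, 6.28 and 7.43 CPM in ALAN libraries at ZT11, against 6.02, 6.19 and 5.91 CPM in control. At ZT23 it held 15, 11.9, 12.8 and 9.88 CPM in ALAN, against 5.43, 4.90, 9.66 and 9.41 CPM in control. The treatments stood apart at both times by a narrow margin, 6.28 against 6.19 CPM at ZT11 and 9.88 against 9.66 CPM at ZT23. The log2 fold change was 0.55 (SE 0.18, adjusted p = 0.707). The second PER2 feature (DN2810) had 0.15 (SE 0.12), with -0.04 at ZT11 and 0.28 at ZT23.

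The other 3 clock members differed mainly at 1 time. CRY1 (DN1907), a repressor in the clock loop, had 0.20 at ZT11 and 0.60 at ZT23, and Cry2, from the same assembly component and so possibly sharing its reads, had -0.01 at ZT11 and 0.56 at ZT23. In contrast, NR1D2 (DN9051), a nuclear receptor that represses BMAL1 transcription, had 0.57 at ZT11 and 0.13 at ZT23. Its ALAN libraries held 49.3, 51.3 and 44.3 CPM at ZT11, against 25.6, 34.5 and 37.3 CPM in control, with no overlap. At ZT23 they held 168, 144, 120 and 132 CPM, against 121, 136, 126 and 132 CPM in control, and overlapped. In the test of the difference between times, the adjusted p was 0.896 for CRY1, 0.596 for Cry2 and 0.776 for NR1D2. Only 17 of 43 clock features (39.5%) had the same sign at both times, beside 47.9% of all features.

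Among genes that sense or signal darkness, few features stood at an unadjusted p under 0.05. Of 13 melatonin and brain opsin features, edgeR and DESeq2 called 0. At an unadjusted p under 0.05, 1 was higher (7.69%, beside 2.21% of all features) and 0 lower. That member was RGR (DN19212), a retinaldehyde-binding opsin, with 0.26 (SE 0.10, adjusted p = 0.860) and overlapping values at ZT11. AANAT (DN20707), the enzyme that limits melatonin synthesis, was scarce. It held 0.84, 1.37 and 1.19 CPM in ALAN libraries at ZT11, against 3.23, 1.36 and 0.12 CPM in control. In ZT23 brains it held 0.43, 0.60, 0.52 and 0.20 CPM in ALAN, against 0.87, 1.05, 0.33 and 2.1 CPM in control. The log2 fold change of -0.93 (SE 0.57, adjusted p = 1.00) was 0.06 once the 3 control libraries high in photoreceptor markers were left out, so its sign rested on those libraries. TPH1 (DN21284), an enzyme of serotonin synthesis in the pineal organ, had -0.66 over all libraries and 0.02 without the same 3.

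The stress axis, inflammation and hormone lists held scattered members only. In the stress axis, 2 of 24 features were higher (8.33%, beside 2.21% of all features) and 0 lower at an unadjusted p under 0.05. These were UCN3 (DN11290, 0.47), a peptide of the corticotropin-releasing family, and POMC (DN11832, 1.45), the precursor of corticotropin. POMC is also made by the pituitary, and its log2 fold change was -0.65 without the 4 libraries high in pituitary markers. In the inflammation and interferon list, 3 of 24 were higher (12.5%) and 0 lower. These were STAT3 (0.26), a cytokine-activated factor, MYD88 (0.38), a Toll-like receptor adaptor, and IRF1 (DN92605, 1.06), an interferon regulatory factor. STAT3 had nearly the same size at both times, 0.27 at ZT11 and 0.24 at ZT23, but its ZT23 values overlapped. The list's median was 0.18, and its count was 0 with photoreceptor, muscle and liver levels as covariates. The count was 1 without ALAN ZT11 replicate 2, ALAN ZT11 replicate 3 or control ZT23 replicate 4. Neither edgeR nor DESeq2 called a member of these 2 lists. The summed immune cell markers ranged from 382 to 1854 CPM in ALAN and from 277 to 1420 CPM in control, and their part in the inflammation list was not tested.

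Thyroid and sterol genes had values of both signs, with 1 higher and 1 lower at an unadjusted p under 0.05 in each list (13 and 24 features). Each was 7.69% of the thyroid and 4.17% of the sterol list, beside 2.21% higher and 2.65% lower of all features. edgeR called 0, and DESeq2 called THRSP. DIO3 (DN59167), the deiodinase that inactivates thyroid hormone, had 0.43 (SE 0.19). THRSP (DN8225), a lipogenic gene first found by its response to thyroid hormone, had -3.24 (SE 0.80, adjusted p = 0.341), with 0.74, 2.17 and 0.62 CPM in ALAN libraries at ZT11 against 29.3, 0.81 and 46.9 CPM in control. Before sunrise, at ZT23, it held 3.33, 0.46, 1.61 and 2.08 CPM in ALAN against 17.0, 1.65, 4.43 and 15.7 CPM in control. Control ZT11 replicate 2 and control ZT23 replicate 2 lay within the ALAN range. A second feature named THRSP was not at an unadjusted p under 0.05. SREBF1 (DN3022), a transcription factor of fatty acid synthesis, had -0.38 (SE 0.10, adjusted p = 0.373) with -0.51 at ZT11 and -0.29 at ZT23.

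In the remaining response lists at most 3 members stood at an unadjusted p under 0.05, and edgeR called 0 in each. Over all features the shares were 2.21% higher and 2.65% lower. The plasticity list had 3 higher and 0 lower of 49 and a median of 0.10. These were both RTN4RL2 features, which DESeq2 called, and VGF (DN9276; 0.39), a precursor of neuronal peptides. PDYN (DN25999; -0.39), the dynorphin precursor, was the 1 lower member of 18 feeding and sleep peptides. DRD1 (DN1565; -0.30), a dopamine receptor, and TPH1 were the 2 lower members of 20 monoamine features. GCLM (-0.46), which helps to make glutathione, was the 1 of 28 antioxidant features, CNP (DN8144; -0.40), a myelin enzyme, the 1 of 17 myelin features, and SLC1A3 (0.31), a glial glutamate transporter, the 1 of 20 radial glia features. Heat shock (20 features), light-responsive DNA repair (18), neurohypophysial and reproductive (14) and proliferation and neurogenesis (27) had 0 in either direction, with medians between -0.02 and 0.01.

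**Figure D3:**
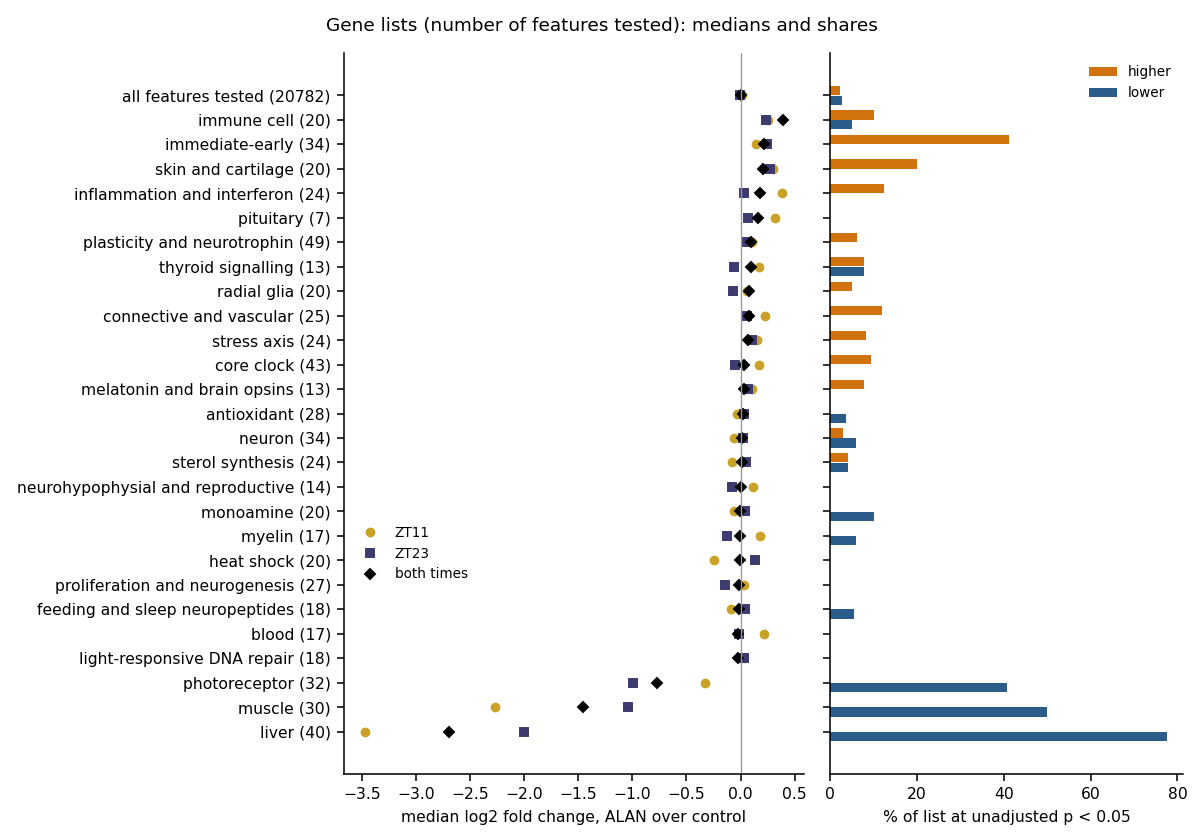
Left, median log2 fold change of ALAN over control for each gene list at ZT11 (circles), at ZT23 (squares) and over both times (diamonds), with the number of features tested; right, percent of the list higher (orange) and lower (blue) at an unadjusted p under 0.05. The liver, muscle and photoreceptor medians lie below 0 at both times, the immediate-early list has the longest orange bar (41.2%), and the medians of the other lists shown, over both times, lie between -0.02 and 0.39.

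The list with the most features lower under ALAN was that of the liver, which makes most plasma proteins. Of 40 liver features, 31 were lower and 0 higher at an unadjusted p under 0.05 (77.5%, beside 2.65% of all features), and the median log2 fold change was -2.70. The list's median was -3.47 at ZT11 and -2.0 at ZT23, and 36 of 40 members were lower at both times. edgeR called 0 of them and DESeq2 called 20, of its 89 lower calls in all. Counts of 0 stood in some ALAN library for 17 of the 40 and in some control library for 7. Features with low ALAN counts can pass the count filter through control libraries alone. In whole-tissue RNA, fewer cells of a type and less RNA per cell cannot be told apart. Of the 31, all had every ALAN library below every control library at ZT11 and 3 did so at ZT23. At ZT23 control replicate 2 lay at or below the highest ALAN library in 27 of the 31, and without that control library 23 stood apart. The 31 were picked by p over these same libraries, so such separation was partly built in and is no separate support.

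APOH (DN13670), a phospholipid-binding plasma glycoprotein, was among the 3 that stood apart at both times. It held 1.92, 0.74 and 1.56 CPM in ALAN libraries at ZT11, against 9.75, 22.8 and 6.67 CPM in control. At ZT23 it held 0.43, 0.60, 0.33 and 0.00 CPM in ALAN, against 4.33, 0.60, 3.13 and 2.05 CPM in control. Its log2 fold change was -3.03 (SE 0.54, adjusted p = 0.264), and counts were few at ZT23, with 0 to 13 in ALAN libraries and 12 in control replicate 2.

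HPX (DN3050), hemopexin, the carrier of free heme, held 0.84, 0.00 and 1.09 CPM in ALAN libraries at ZT11, against 25.6, 14.1 and 20.7 CPM in control. In ZT23 brains it held 0.11, 0.60, 0.80 and 0.05 CPM in ALAN, against 11.8, 0.25, 5.51 and 2.35 CPM in control. Control ZT23 replicate 2 was again low, below 2 of the ALAN libraries, and the ZT11 groups stood far apart. The log2 fold change was -4.23 (SE 0.79, adjusted p = 0.264).

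FGB (DN7619), the beta chain of fibrinogen, was chosen as a defining liver marker. It held 8.93, 1.48 and 6.44 CPM in ALAN libraries at ZT11, against 52.1, 159 and 44.4 CPM in control. Before sunrise, at ZT23, it held 1.72, 3.43, 5.35 and 0.66 CPM in ALAN, against 19.8, 1.25, 17.1 and 7.10 CPM in control. The alpha chain FGA (DN719; -2.37) and the gamma chain FGG (DN9482; -2.93) had like values.

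The remaining named features lower under ALAN were of the same kind or of fat and bile handling. SERPINA12, a serine protease inhibitor, had -2.98 (DN519) and -3.32 (DN7527), KNG1, kininogen, -3.03, hpd, an enzyme of tyrosine breakdown, -3.31, and the complement proteins C2 and C3 (DN19339) -3.33 and -2.76. DGAT2, which completes triglyceride synthesis, had -2.90 and SLC51B, a subunit of a bile acid transporter, -2.22. Their adjusted p lay between 0.264 and 0.301. Without control ZT23 replicate 2 edgeR called 9 features lower, among them APOH, HPX, DGAT2, both SERPINA12 features, hpd and C2, at adjusted p between 0.0147 and 0.0352 for these 7. For a C3 feature with no counts in any ALAN library (DN107751), the control mean was 0.99 CPM. That mean was 45.9-fold a floor of 3 counts over the ALAN group. This size covers counting error only and not the spread between brains, and some control library also held no count. DN107751 passed the count filter through its control libraries alone, so a lower ALAN level was partly fixed by that filter. The same holds for C3 (DN19339), with 13, 5, 1, 1, 7, 9 and 2 counts in the ALAN libraries.

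The summed liver list held 520, 563 and 348 CPM in ALAN libraries at ZT11, against 945, 2411 and 907 CPM in control, with no overlap. At ZT23 it summed to 368, 696, 769 and 703 CPM in ALAN, against 763, 543, 796 and 433 CPM in control, and the groups overlapped. Ceruloplasmin (CP), transferrin (TF) and the plasma glycoprotein AHSG are among its highest members. CP, the copper carrier and the highest member, had 0.57, and TF, the iron carrier, -0.60 with 79.1, 71.5 and 64.0 CPM in ALAN libraries at ZT11, against 121, 158 and 151 CPM in control. At ZT23 TF held 118, 130, 144 and 104 CPM in ALAN, against 152, 171, 195 and 93.0 CPM in control. With the summed photoreceptor, muscle and liver levels as covariates, 20 liver features stood at an unadjusted p under 0.05 on the lower side, and without control ZT11 replicate 2, the library with the highest liver sum, 29 did. What brought these transcripts into a brain library was not tested.

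Muscle features also had lower ALAN values. Of 30 muscle features, 15 were lower, beside 2.65% of all features, and 0 higher at an unadjusted p under 0.05. The list's median was -1.46. edgeR called 0 of its features and DESeq2 8, of 89 lower DESeq2 calls over all 20782 features tested. TNNT3 (DN1447), troponin T of fast muscle, held 30.8, 16.8 and 16.4 CPM in ALAN libraries at ZT11, against 310, 11.4 and 281 CPM in control. At ZT23 it held 20.3, 9.16, 7.34 and 21.6 CPM in ALAN, against 34.4, 32.4, 87.5 and 35.8 CPM in control. Control ZT11 replicates 1 and 4 held the high values. In 14 of the 15, control ZT11 replicate 2 lay at or below the highest ALAN library of that time. Without control ZT11 replicates 1 and 4 the count of lower muscle features was 3.

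Of 32 photoreceptor features, 13 were lower (40.6%, beside 2.65% of all features) and 0 higher at an unadjusted p under 0.05. The list's median was -0.77, and edgeR and DESeq2 both called 0. The summed list held 119, 203 and 128 CPM in ALAN libraries at ZT11, against 422, 141 and 123 CPM in control. At ZT23 it summed to 118, 145, 109 and 114 CPM in ALAN, against 135, 501, 135 and 2181 CPM in control. The high sums belonged to 3 control libraries, and the other 4 control libraries lay within the range of the ALAN libraries. With these 3 left out, 0 photoreceptor features were lower at an unadjusted p under 0.05, and the count was 4 without control ZT11 replicate 1, 6 without control ZT23 replicate 4 and 8 without ALAN ZT23 replicate 2.

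**Figure D4:**
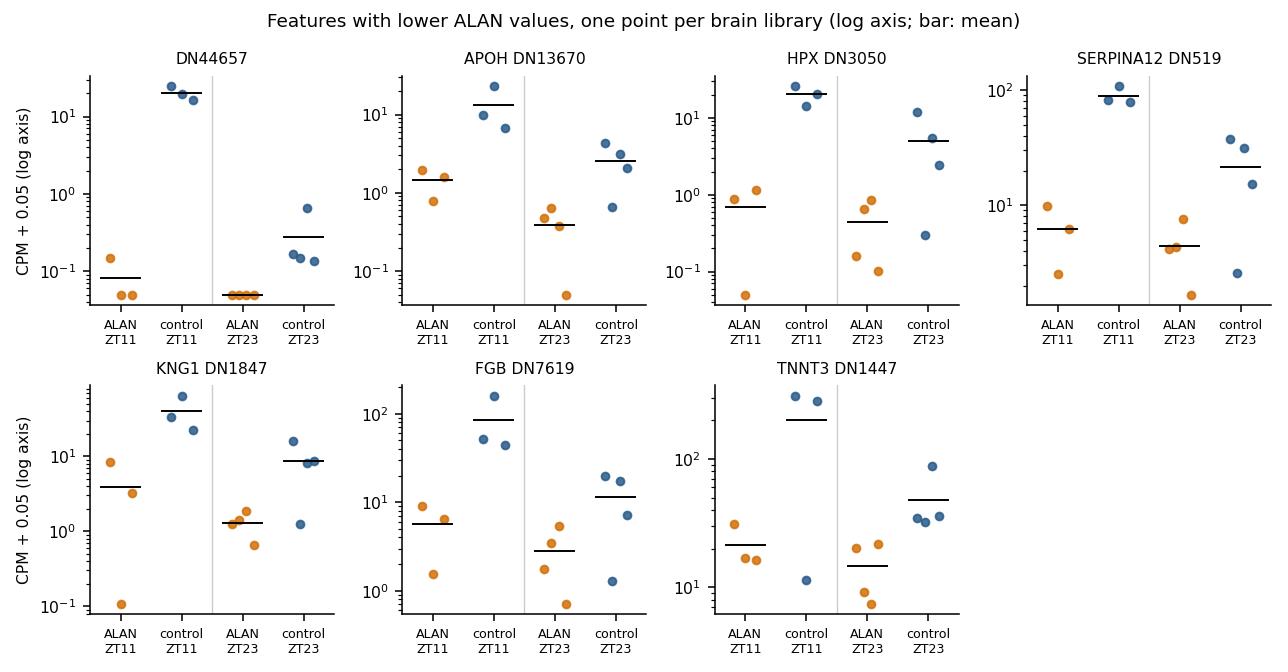
CPM plus 0.05 on a log axis for 7 features in each brain library, ALAN (orange) left of control (blue) at ZT11 and then at ZT23; bars are group means. DN44657 separates fully, APOH, HPX, SERPINA12, KNG1 and FGB separate at ZT11 and all have 1 low control library at ZT23, and the high ZT11 values of TNNT3 come from 2 of the 3 control libraries.

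**Figure D5:**
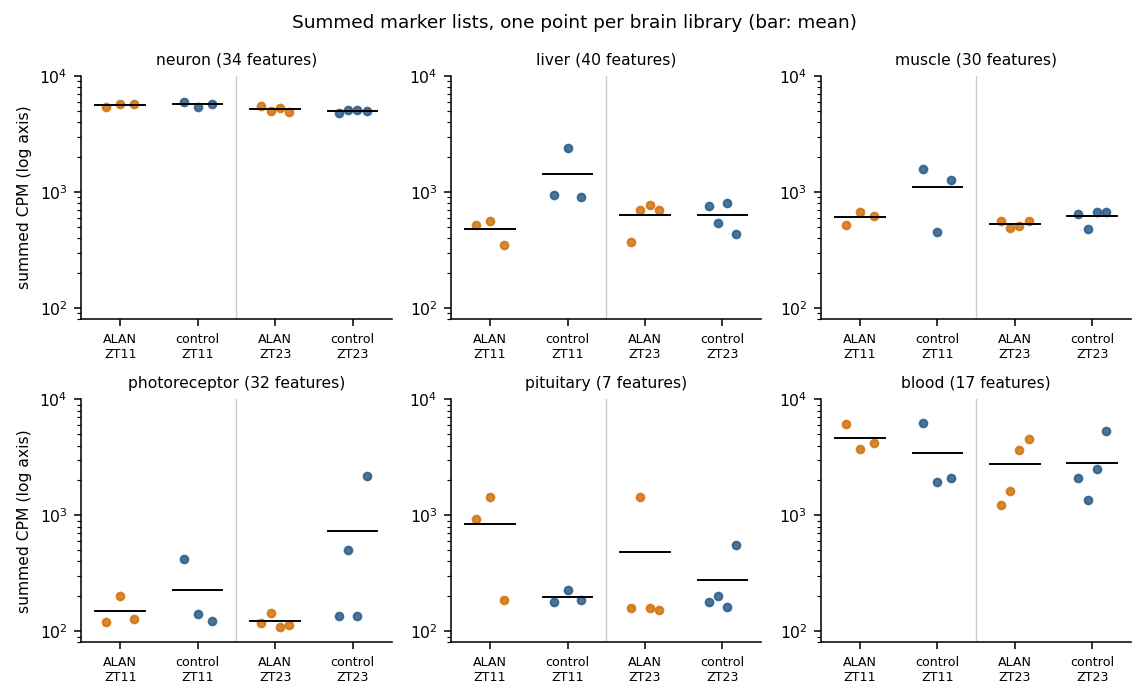
Summed CPM of 6 marker lists in each brain library on a common log axis, ALAN (orange) left of control (blue) at ZT11 and then at ZT23; bars are group means. The neuron list is level, from 4808 to 5941 CPM, while photoreceptor, pituitary and muscle sums have single libraries far above the rest.

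At an unadjusted p under 0.05, neuron markers had 1 higher and 2 lower of 34, immune cell markers 2 and 1 of 20, and skin and cartilage markers 4 and 0 of 20 (20.0% higher, beside 2.21% of all features), among them the keratins KRT8 (0.51) and KRT18 (DN13538; 0.46). Lens (6 features), pituitary (7) and blood (17) had 0 in either direction. Neither edgeR nor DESeq2 called a member of these 6 lists.

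Features whose ALAN libraries all lay above all control libraries of the same time, at both times, numbered 13 (0.0626% of those tested), and 17 lay below (0.0818%). These were named because of that separation, after their values were seen. With 3 or 4 libraries per group, treatment labels in random order would separate a similar number of features in each direction. These counts are therefore a description and no support for an effect of treatment. The 13 higher were RTN4RL2 (DN8334), PDGFRB, FOSB, NR4A1, THRAP3 and PER2, described above, and DN21832, annotated as an interleukin-1 receptor-like protein, AKAP11, SMAD2, BIN2, FAM160B1, MON1B and SPG21. DN21832 had 1.36 (SE 0.29, adjusted p = 0.301), 0.48 at ZT11 and 2.02 at ZT23. Its ALAN libraries held 4.54, 5.53 and 4.31 CPM at ZT11, against 3.23, 3.91 and 3.16 CPM in control. At ZT23 they held 5.91, 9.75, 9.75 and 10.8 CPM, against 1.44, 2.40, 3.31 and 1.75 CPM in control.

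SMAD2, a signal carrier of the TGF-beta pathway, had 0.77 (SE 0.20), with 0.78 at ZT11 and 0.76 at ZT23. AKAP11, an anchor of protein kinase A, had 0.50 (SE 0.12), with 0.61 and 0.41, and BIN2, a membrane-bending protein of white blood cells and microglia, 0.81 (SE 0.26), with 1.33 and 0.44. The smallest of the 13 were MON1B (0.21) and SPG21 (0.19), both linked to endosomes. The adjusted p of the 13 ran from 0.102 to 0.918, so some features with a large adjusted p also separated at both times.

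The 17 lower features held, besides DN44657, a group of plasma and liver transcripts. These were APOH, AKR1D1 (a reductase of bile acid synthesis; -2.35), HABP2 (a plasma protease; -3.14), TM4SF5 (-2.58), C3 (DN22177; -3.36) and C5 (DN49059; -2.71). All of these but APOH were scarce, averaging 0.57 to 1.07 CPM. Among the others, PABPN1, the nuclear poly(A)-binding protein, held 571, 605 and 572 CPM in ALAN libraries at ZT11, against 627, 635 and 693 CPM in control. Before sunrise, at ZT23, it held 552, 563, 552 and 524 CPM in ALAN, against 594, 615, 598 and 669 CPM in control. Its log2 fold change was -0.17 (SE 0.05, adjusted p = 0.650). CSTF1, a subunit of the cleavage factor that acts before polyadenylation, had -0.24 (SE 0.08). RPAP1, an RNA polymerase II-associated protein, had -0.93 (SE 0.20, adjusted p = 0.323), with -0.93 at ZT11 and -0.94 at ZT23. SYNPO2L, RHOH, GRAMD3, RPGRIP1L and the unnamed DN136553, DN18011 and DN41629 averaged 1.16 CPM or less. The highest ALAN library held 8 counts of AKR1D1, 2 of SYNPO2L, 6 of RHOH and 4 of DN136553, all under the filter's minimum count of 10. These passed the count filter through control libraries alone, so a lower ALAN level was partly fixed by that filter. The same limit holds for HABP2, TM4SF5, C3 (DN22177), C5 (DN49059), GRAMD3 and DN41629. In these, fewer ALAN libraries reached the filter's level than the filter asks for.

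The features lower at both times at an unadjusted p under 0.05 included many of other tissues by name. Of the 90, 24 were on the liver list and 21 in the KEGG complement and coagulation set, with 30 in either of these. On the muscle list were 6, and 36 were in the complement set or on any list of another tissue. Of the 20782 features tested, the liver list held 40, the complement set 112 and the muscle list 30. Of the 17 higher at both, 0 were on the liver list and 1, PDGFRB, on any list of another tissue. The 17 included RTN4RL2 (DN8334), PDGFRB, NR4A1, THRAP3, icam5, DGKE, GPR155, AKAP11 and SMAD2, and also PDK4, a kinase that spares glucose (0.91), SLC3A1, an amino acid transporter subunit (1.34), and MAST1, a kinase of neurons (0.39).

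Pathway sets from KEGG were counted in the same way. In complement and coagulation, 37 of 112 features were lower (33.0%, beside 2.65% of all features) and 1 higher at an unadjusted p under 0.05. The median was -0.34. edgeR called 0 and DESeq2 20, all lower, of 89 lower DESeq2 calls over all 20782 features tested. In phototransduction, 11 of 36 were lower (30.6%) and 0 higher, with a median of -0.34. That count was 3 without control ZT11 replicate 1, 5 without control ZT23 replicate 4, 7 without ALAN ZT23 replicate 1, and 0 with marker sums as covariates or without the 3 libraries high in photoreceptor markers. Cytokines and their receptors had 5 higher (2.54%, beside 2.21% of all features) and 2 lower (1.02%) of 197 and a median of 0.11. Circadian rhythm had 4 higher (7.84%) and 0 lower of 51. Medians in ribosome (-0.04 of 123 features), oxidative phosphorylation (-0.05 of 130), glutamatergic synapse (-0.01 of 261) and GABAergic synapse (-0.02 of 185) lay close to that of all features. The small values leaned lower in the first 2 of these sets. At both times, 47 ribosome features were lower and 5 higher, and 47 oxidative phosphorylation features were lower and 12 higher. Over all features, 4917 were lower and 5029 higher at both times. The other 16 sets had medians between -0.09 and 0.02, and in none did edgeR call a feature.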

How the data were processed

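The authors deposited expected counts, which are estimates and were fractional in 96.0% of values, for 21805 assembled genes in 14 libraries of 1 brain each. The libraries were not stranded, so a gene and an antisense partner cannot be told apart. The submitters' processing notes name Trimmomatic 0.39, RSEM and Bowtie2; no source used here says whether the 9-base molecular identifiers were collapsed. Per the file headers, eggNOG-mapper 2.1.7 produced the annotation the authors deposited, which gives a best match with its bit score and, for 18198 features, a gene name; names shared by features may be copies or fragments. Groups came from the sample titles, and the labels' batch tag holds only the time of day. No genome was used here, and no sequences are shown.

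Expected counts were rounded. The function filterByExpr, given the 4 groups (minimum count 10, minimum total 15), kept 20782 features and removed 1023. edgeR 4.0.16 in R 4.3.3 (TMM scaling with factors from 0.870 to 1.08, glmQLFit, glmQLFTest, 11 residual degrees of freedom) tested treatment beside time of day. A fit with a mean per group gave the ZT11, ZT23 and interaction values. Adjustment was by Benjamini-Hochberg over all features at 0.05. SE is the absolute log2 fold change over the square root of F, and CPM uses TMM-scaled totals. The scripts were tested on simulated data. The alternatives were DESeq2 1.42.0, other scalings, filters, models and covariates, and leaving out libraries; those by marker level (libraries above 3 times the median sum, 2 times for muscle) were chosen after seeing the data. The members and lists were chosen with earlier results of these data known.

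A feature belonged to 1 of 17 response or 10 marker lists by its name, and to 24 sets by KEGG pathway. Named were the called feature, the 10 named features in each direction with the smallest p, the same sign at both times and a mean of at least 1 CPM, and up to 3 members of each response list. Depth was 14942952 to 23051193 expected counts per library; intervals cover counting error only. Replicate numbers did not pair the libraries: deviations of same-numbered libraries of the 2 treatments correlated between -0.17 and 0.10. Some features are not reported here.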

Additional observations from a re-analysis of the deposited data

Results flagged for a closer look

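In the groups of 4 libraries at ZT23, the highest or lowest library was compared with the rest by Dixon's gap ratio, over 156 sets of 4 values, of which chance flags about 1 in 20; 15 stood out. In ALAN ZT23 replicate 2, the pituitary list summed to 1451 CPM, against 153 to 159 CPM in the other ALAN ZT23 libraries, and POMC (DN11832) stood at 43.2 CPM, against 2.20 to 3.74 CPM. In control ZT23 replicate 4, the pituitary list summed to 558 CPM (162 to 200 CPM in the others), POMC to 11.8 CPM (3.92 to 4.51), the immune cell list to 862 CPM (1358 to 1420) and HES1 to 3.64 CPM (1.80 to 1.96). In control ZT23 replicate 3, DN44657 stood at 0.61 CPM (0.09 to 0.12), CRY1 at 48.1 CPM (28.9 to 32.1), DIO3 at 51.4 CPM (22.2 to 22.8), SLCO1C1 at 11.4 CPM (7.87 to 8.15) and the skin and cartilage list at 309 CPM (212 to 226). In control ZT23 replicate 2, the muscle list was low at 479 CPM (649 to 667) and DNAJB1 high at 13.0 CPM (11.6 to 11.7). In control ZT23 replicate 1, the neuron list was low at 4808 CPM (5028 to 5058) and SGK1 high at 190 CPM (171 to 172).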

How the results depend on the processing

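edgeR called 0 features higher and 1 lower in the reported fit, and the same counts with DESeq2's size factors as scaling, no filter on low counts, the average of day and night effects, counts summed by name, and both replicate block fits (0 higher and 1 lower with the replicate block, which kept DN44657). DESeq2 called 25 higher and 89 lower. None was called lower with at least 1 CPM in 7 libraries (DN44657 was not tested), with no time of day covariate, with 3 other-tissue covariates, or without the libraries high in pituitary markers (0 in each). Day libraries alone gave 2 lower (DN44657 and the unnamed DN69545), night libraries alone 4 higher (FOS, EGR1, RTN4RL2 DN6473 and the unnamed DN4098) and 0 lower. Without libraries high in photoreceptor markers 2 were lower (DN44657 and SERPINA12 DN519), and without the library high in liver markers 1 was higher (RTN4RL2 DN8334). Leaving out each library in turn gave 0 to 1 higher and 0 to 9 lower, with 0 lower without ALAN day replicate 1 and 9 without control night replicate 2. DESeq2's size factors gave 14 higher and 18 lower features separated at both times, against 13 and 17. Replicate numbers did not pair the libraries; the replicate block left 14 immediate-early, 30 liver, 14 muscle and 3 photoreceptor features at an unadjusted p under 0.05, and the block within time of day 14, 30, 8 and 5. Of the named features' values over all alternatives, 1955 kept direction and side of the threshold, 33 passed it newly, 5 lost it and 13 changed sign. The sign changes were PGR at -0.0040 with the replicate block within time of day; TPH1 at 0.25, HEY1 at -0.11, AANAT at 0.12 and SLCO1C1 at -0.039 with 3 other-tissue covariates; Cry2 at -0.016, HSP90AB1 at -0.0017, DDB2 at -0.0070, HMOX1 at -0.041 and tmtops3a at 0.10 in day libraries alone; TPH1 at 0.017 and AANAT at 0.059 without libraries high in photoreceptor markers; and POMC at -0.65 without those high in pituitary markers. The cause of these changes was not tested. With 3 or 4 brains per group and colony unknown, shifts near the spread between brains could not be resolved.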
